A study of Homo sapiens with 24 samples.

Results

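The experiment described here is the treatment with doxycycline (DOX) of THP-1 cells that carried an empty vector, so that the drug had no NOD1 or NLRP4 coding sequence to switch on. It comprises 8 of the 24 arrays of the series, chosen by their labels alone: 4 arrays of the vector line with DOX at 1 µg/ml for 6 h, and 4 arrays of the same line without DOX. THP-1 is a human monocytic leukaemia line. All cells, the untreated ones included, had been infected at low copy with a pSLIK lentivirus and selected with G418, and 50000 cells were plated in each well of a 96-well dish. The other 16 arrays hold a line with inducible FLAG-tagged NLRP4 and a line with inducible FLAG-tagged NOD1, each with and without the same dose for the same time. Total RNA was hybridised to Affymetrix human ST arrays, on which the signal of a gene is given on the log2 scale. A difference of 1 is therefore 2-fold, and a difference of 0.585 is 1.5-fold. Each construct is represented by 1 stable line. The sources used here do not give whether that line is a clone or a pool, nor whether the empty vector kept a drug-responsive transactivator.

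Doxycycline is a tetracycline antibiotic and binds bacterial ribosomes. Mitochondria descend from bacteria, and their ribosomes are a known off-target of the drug in human cells, where it can slow synthesis of the respiratory chain subunits encoded by mitochondrial DNA. Cells answer failing mitochondria through the integrated stress response: OMA1 cleaves DELE1, an eIF2 kinase is activated, and the transcription factor ATF4 is translated and drives target genes such as ASNS, CHAC1, TRIB3 and FGF21. Setting DOX against no DOX in a line that lacks an inducible gene asks what the drug itself does to transcript levels.

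ATF4 acts at promoters through a composite element whose letters are TGATGNAA. The element was searched on both strands of RefSeq promoters of build GRCh38.p14, from 250 bases before to 50 bases after each gene's start. It occurred in 11 of the 38 promoters found for the ATF4 gene list used below (28.95%) and in 1003 of 27305 promoters of all genes (3.67%). The promoters of the 4 genes of that list that hold the element and are followed by name below are printed 5′ to 3′ on the gene's own strand, with the element in capitals. In CHAC1 and FGF21 it lies on the opposite strand. The regions are chr1:212565157-212565456 on the plus strand for ATF3, chr15:40953221-40953520 on the plus strand for CHAC1, chr7:97872359-97872658 on the minus strand for ASNS and chr19:48755274-48755573 on the plus strand for FGF21.
ATF3: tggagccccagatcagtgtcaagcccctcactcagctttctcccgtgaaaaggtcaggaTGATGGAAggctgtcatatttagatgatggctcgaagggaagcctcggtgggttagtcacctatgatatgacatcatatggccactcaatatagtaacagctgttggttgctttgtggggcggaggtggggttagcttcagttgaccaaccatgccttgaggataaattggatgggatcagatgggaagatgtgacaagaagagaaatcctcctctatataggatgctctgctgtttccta
CHAC1: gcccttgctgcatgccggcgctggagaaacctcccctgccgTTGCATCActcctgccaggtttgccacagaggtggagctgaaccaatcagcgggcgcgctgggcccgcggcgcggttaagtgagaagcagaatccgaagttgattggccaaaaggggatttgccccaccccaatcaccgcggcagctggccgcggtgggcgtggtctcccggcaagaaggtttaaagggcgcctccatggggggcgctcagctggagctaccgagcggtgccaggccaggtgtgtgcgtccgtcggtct
ASNS: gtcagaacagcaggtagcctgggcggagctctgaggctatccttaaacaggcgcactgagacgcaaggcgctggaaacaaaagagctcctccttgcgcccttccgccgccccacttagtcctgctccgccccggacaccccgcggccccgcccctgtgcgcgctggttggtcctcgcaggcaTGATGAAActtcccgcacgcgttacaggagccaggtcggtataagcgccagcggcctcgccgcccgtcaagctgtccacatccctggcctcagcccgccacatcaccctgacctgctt
FGF21: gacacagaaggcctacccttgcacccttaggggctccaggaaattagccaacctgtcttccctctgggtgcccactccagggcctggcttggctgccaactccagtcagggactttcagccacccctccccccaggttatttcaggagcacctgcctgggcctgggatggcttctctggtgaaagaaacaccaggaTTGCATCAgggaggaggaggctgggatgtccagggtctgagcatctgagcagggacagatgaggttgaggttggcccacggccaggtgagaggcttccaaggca
The first printed base of the element lies 68 bases before the start in ASNS, 54 in FGF21, 191 in ATF3 and 209 in CHAC1. A match to these letters is a description of the sequence, not of a bound site.

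The 8 arrays were similar, but 2 of the untreated ones stood apart. The deposited medians were 8.57, 8.73, 8.62 and 8.68 with DOX, against 8.82, 8.06, 8.58 and 8.63 without DOX, so that the first untreated array was the brightest and the second the dimmest of the 8. After quantile normalization, pairs of DOX arrays correlated at 0.9924 to 0.9934 across genes, pairs of untreated arrays at 0.982 to 0.9922, and pairs across the groups at 0.9867 to 0.9935. The median SD of a gene was 0.114 with DOX and 0.153 without (n = 4 each). The array weights that limma estimated were 1.29 to 1.68 for the DOX arrays, against 0.522 and 0.612 for the first and second untreated arrays and 1.85 and 1.12 for the other two. Untreated arrays carry the numbers 1 to 4 and DOX arrays the numbers 5 to 8 in a plate order that the submitters call pre-assigned and not randomized, so that drug and place cannot be told apart. The labels do not tell whether the 4 replicates were separate cultures, so p-values refer to the spread among wells of a group and may reflect technical variation alone. In limma that spread was pooled over the 6 groups of all 24 arrays, the NLRP4 and NOD1 lines included. Of 18 measured markers of monocytes and THP-1 cells, 0 lay in the lowest 25% of genes by signal, whereas 8 of 12 markers of T and natural killer cells did. The other marker lists were less clear. In the lowest 25% lay 2 of 7 B cell, 3 of 8 erythroid and platelet, and 4 of 12 epithelial and fibroblast markers. LYZ, the lysozyme gene, lay at the 98.5 percentile, but CD14, MPO and ITGAM lay at the 25.4, 28.4 and 31.1 percentiles. The epithelial marker EPCAM lay at the 36.4 percentile. These genes were chosen after their values were seen. Probe sets differ in brightness, and such ranks are a rough guide.

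The 2 genes that the sister lines induce differed between DOX and no DOX by less than the spread of the arrays. NOD1 read 8.35, 8.66, 8.09 and 8.49 with DOX, against 8.17, 8.46, 8.17 and 8.54 without. NLRP4 read 6.99, 6.99, 7.38 and 6.83 with DOX, against 7.28, 6.49, 7.04 and 6.87 without. The groups overlap for both genes. The differences were 0.06 (SE 0.135) for NOD1 and 0.13 (SE 0.188) for NLRP4, while the same dose raised NOD1 by 4.02 in the NOD1 line and NLRP4 by 3.84 in the NLRP4 line. Those lines had 2 called genes (0.0109%) and 3 called genes (0.0163%), and at an unadjusted p under 0.05 they had 5.77% and 8.05% of all genes.

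No gene passed the test for DOX in the vector line. Of 18417 genes with a single symbol, 0 (0%) had an adjusted p under 0.05 in limma's test with Benjamini-Hochberg adjustment. At an unadjusted p under 0.05 there were 622 genes (3.38%), of which 307 were higher (1.67%) and 315 lower (1.71%) with DOX. The 4 DOX arrays lay entirely above or entirely below the 4 untreated arrays in 498 genes (2.7%), 218 above (1.18%) and 280 below (1.52%). From the 5 to the 95 percentile of genes the differences ran from −0.19 to 0.19, and from the 1 to the 99 percentile from −0.29 to 0.32.

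The absence of a call was accompanied by narrow intervals. The median gene's 95% interval reached 0.23 to either side of its difference, which is 1.17-fold. An equivalence test asks the opposite question, whether a difference is smaller than a stated bound, by 2 one-sided limma tests with Benjamini-Hochberg adjustment. It placed 17833 genes (96.8%) inside 1.5-fold and 18356 genes (99.7%) inside 2-fold. The single 95% intervals lay inside 1.5-fold for 17484 genes (94.9%) and inside 2-fold for 18315 genes (99.4%). With intervals widened so that they hold for all 18417 genes at once, 14860 still lay inside 2-fold. These bounds concern array signal, and near the low end of the scale a signal can understate a change in transcript. For the lists and genes below, inside a bound means placed there by the equivalence test, which counted more genes as inside than the single intervals did. With both outlying untreated arrays left out together, an alternative chosen after seeing the data, 0 genes were called, 509 had an unadjusted p under 0.05 and the shares inside the bounds were 93.34% and 99.35%. Of 150 genes examined one by one, 30 turned direction when 1 of the 8 arrays was left out, and 0 of these 30 had an unadjusted p under 0.05, so small differences below carry no settled direction.

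**Figure D1:**
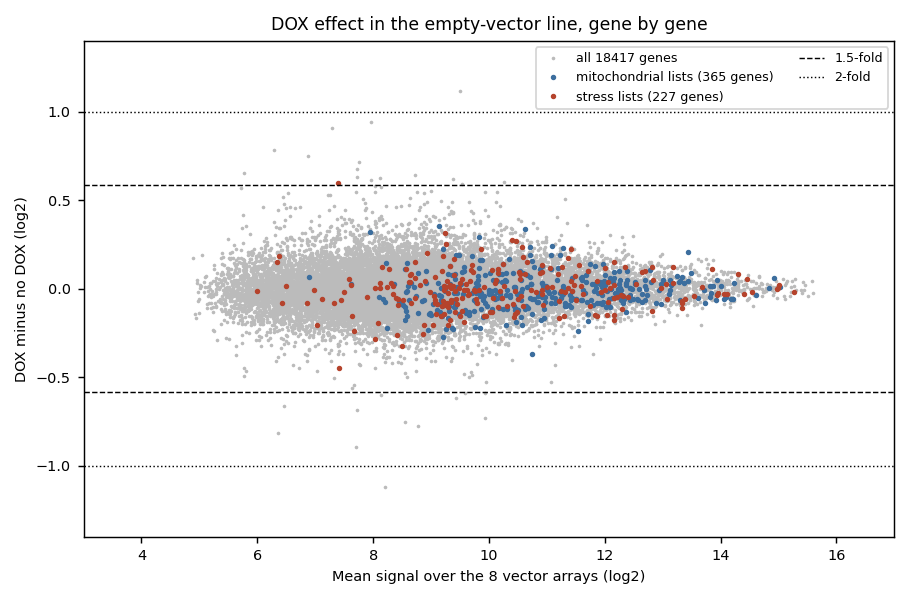
Difference between the means of the 4 DOX and the 4 untreated arrays of the vector line (log2, vertical axis) against the mean signal over the 8 arrays (log2, horizontal axis). Each point is 1 of 18417 genes, with members of the mitochondrial lists in blue and of the stress lists in red. Dashed lines mark 1.5-fold and dotted lines 2-fold: 28 genes lie outside the first and 2 outside the second, and of the coloured points LOX alone lies just past the 1.5-fold line.

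The largest differences among the genes with a single symbol were in small structural RNAs and had wide intervals. The 13837 probe sets with several symbols or none, which name no gene here, ranged more widely, from −2.14 to 2.16, with 0 called. A difference of at least 1.5-fold was found in 28 genes (0.152%): 10 protein coding genes, 7 small nucleolar RNAs, 4 small nuclear RNAs, 3 microRNA hairpins, 3 pseudogenes and 1 other. Only 2 genes (0.0109%) differed by at least 2-fold, and both are named because of their values. SNORD59B, a small nucleolar RNA that guides ribosomal RNA modification, read 7.25, 8.36, 7.05 and 7.93 with DOX, against 8.87, 9.01, 7.78 and 9.42 without. RNVU1-19, a variant of the U1 spliceosomal RNA, read 10.60, 9.66, 10.08 and 9.89 with DOX, against 8.86, 9.77, 8.69 and 8.44 without. Both sets of arrays overlap. The differences were −1.12 (SE 0.482) and 1.12 (SE 0.368), with limma adjusted p = 0.999 for both. The 61 genes that could not be placed inside 2-fold included 26 small nucleolar RNAs and 4 small nuclear RNAs. Of all measured small nucleolar RNAs 149 of 175 were inside 2-fold (85.14%), and of protein coding genes 16883 of 16900 (99.9%).

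Subunits of the respiratory chain, the machinery whose mitochondrial share the drug can starve, had the same signal with and without DOX to within small margins. The 15 mitochondrially encoded transcripts on the list were not analysed here, because no probe set carried a single symbol for any of them, so all that follows concerns nuclear genes. Of 72 nuclear subunits of complexes I to IV and of ATP synthase, 0 were called and 0 had an unadjusted p under 0.05, beside 3.38% of all genes. Their median difference was −0.01, beside −0.00 for all genes. Averaged over these subunits, the signal was 12.088, 12.132, 12.092 and 12.123 with DOX, against 12.092, 12.198, 12.121 and 12.071 without. The untreated arrays span the DOX arrays on both sides.

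Complex I, which feeds electrons from NADH into the chain, had 34 measured subunits with differences from −0.14 to 0.14, all 34 inside 1.5-fold. At the lower end NDUFB10 read 11.59, 11.60, 11.69 and 11.66 with DOX, against 11.72, 11.91, 11.80 and 11.69 without. Its DOX arrays all lie below the untreated ones, although the closest pair is equal at this rounding, and its difference of −0.14 (SE 0.084) had an unadjusted p of 0.0994 in limma. NDUFA12 stood at the upper end with 0.14 (SE 0.085). Complex IV, cytochrome c oxidase, had 10 nuclear subunits from COX5B at −0.13 (SE 0.102) to COX6C at 0.06 (SE 0.060), and ATP synthase 17 subunits from −0.08 to 0.07, all inside 1.5-fold. The 3 measured subunits of complex II, succinate dehydrogenase, which has no mitochondrially encoded part, ranged from −0.04 for SDHA to 0.13 for SDHD. Without the last untreated array SDHD stood at 0.03, and without the first SDHA stood at 0.02.

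One subunit of complex III, which passes electrons to cytochrome c, was less tightly bounded. UQCRB read 10.00, 9.92, 9.96 and 10.00 with DOX, against 9.11, 10.04, 9.93 and 9.63 without. Its difference of 0.29 (SE 0.185, 95% interval −0.09 to 0.67) rests on the first untreated array and was 0.10 without it. The other 7 subunits of complex III were inside 1.5-fold. Of 43 assembly factors 42 were inside 1.5-fold, the exception being NUBPL, an iron-sulphur protein needed for complex I, at 0.16 (SE 0.245) and chosen after its values were seen.

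The mitochondrial ribosome itself, the drug's off-target, was represented by 77 protein genes. None was called, and 76 were inside 1.5-fold. An unadjusted p under 0.05 was found for 5 of them (6.49%, beside 3.38% of all genes), 2 higher and 3 lower with DOX. The list's median difference was −0.02, and its mean signal was 10.906, 10.878, 10.863 and 10.885 with DOX, against 10.850, 10.980, 10.905 and 10.872 without, again with the DOX arrays inside the untreated range. MRPS9, a small-subunit protein, gave the largest difference and was the member not placed inside 1.5-fold. It read 10.50, 10.45, 10.75 and 10.51 with DOX, against 10.83, 10.89, 10.80 and 11.16 without. The groups do not overlap, and the difference of −0.37 (SE 0.177, 95% interval −0.73 to −0.00) had an adjusted p of 0.999 in limma. MRPL43 of the large subunit read 9.25, 9.30, 9.26 and 9.27 with DOX, against 9.47, 9.68, 9.37 and 9.46 without, also without overlap, at −0.23 (SE 0.083). MRPS16 (0.24, SE 0.092) and MRPS10 (0.21, SE 0.088, chosen after its values were seen) of the small subunit lay on the other side of 0.

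Among 47 translation factors and mitochondrial tRNA synthetases 0 were called and 46 were inside 1.5-fold. Only 1 had an unadjusted p under 0.05 (2.13%, beside 3.38% of all genes). TUFM, the elongation factor that brings tRNAs to the mitochondrial ribosome, read 9.69, 9.78, 9.73 and 9.73 with DOX, against 10.08, 9.67, 9.74 and 9.74 without. Apart from the first untreated array these values lie close together. RMND1, needed for mitochondrial translation, had the lowest p at −0.27 (SE 0.131), and stood at −0.44 without the first untreated array, −0.18 without the second and −0.18 without the last. FARS2, the mitochondrial phenylalanyl-tRNA synthetase, had the highest difference at 0.36 (SE 0.200) and the widest upper limit, 0.77, of all 365 mitochondrial genes. It read 9.22, 9.25, 9.44 and 9.34 with DOX, against 9.08, 9.60, 8.50 and 8.64 without, so that 1 untreated array, the second, lies above every DOX array. Without that array the difference was 0.57, and without the third it was 0.20.

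Genes that keep and copy mitochondrial DNA had 32 measured members, 0 called, 0 with an unadjusted p under 0.05 and all 32 inside 1.5-fold. TFAM, which packages mitochondrial DNA and starts its transcription, read 13.01, 12.84, 12.90 and 12.98 with DOX, against 13.02, 12.90, 13.02 and 13.14 without. POLRMT, the mitochondrial RNA polymerase, differed by 0.08 (SE 0.133). POLG2, a subunit of the mitochondrial DNA polymerase, had the lowest p of the list at −0.22 (SE 0.122), and TWNK, the helicase of the replication fork, chosen after its values were seen, stood at −0.22 (SE 0.147) and at −0.09 without the second untreated array. The list's median of −0.06 was the lowest of all 43 measured lists, and its mean signal still overlapped: 10.121 to 10.176 with DOX, against 10.079 to 10.235 without.

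Chaperones and proteases of the mitochondrial matrix, which rise in the mitochondrial unfolded protein response, had small differences with narrow intervals. HSPD1, the chaperonin HSP60, read 15.08, 15.05, 15.01 and 14.97 with DOX, against 15.08, 14.94, 15.02 and 15.02 without. The difference was 0.01 (SE 0.060), with a 95% interval in fold terms of 0.925 to 1.10. Its partner HSPE1 stood at −0.09 (SE 0.099) and the matrix HSP70 HSPA9 at −0.05 (SE 0.057). The proteases LONP1 and CLPP stood at −0.15 (SE 0.127) and 0.07 (SE 0.100). The DOX arrays of HSPA9 all lay below the untreated ones, as in 1.52% of all genes. Those of CLPP all lay above, as in 1.18% of all genes, although its closest pair is equal at 9.92 after rounding. Neither had an unadjusted p under 0.05 in limma. Of 26 members 0 were called, 0 had an unadjusted p under 0.05 and all 26 were inside 1.5-fold, as were all 24 genes of protein import.

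Central metabolism held the lowest p among the 365 genes of the mitochondrial lists. PC, pyruvate carboxylase, which refills the citric acid cycle, read 8.08, 8.18, 8.01 and 8.16 with DOX, against 7.81, 7.84, 7.87 and 7.62 without. All DOX arrays lie above all untreated arrays. The difference of 0.32 (SE 0.096) had an unadjusted p of 0.00266 and an adjusted p of 0.999 in limma. A two-sided exact permutation test over the 8 arrays gave p = 0.0286, the smallest that 70 splits allow. That value follows from the lack of overlap, which 498 genes share (2.7% of all genes), so it adds nothing to it. The other 23 genes of the citric acid cycle and pyruvate entry had unadjusted p-values above 0.05, and all 24 were inside 1.5-fold. Among 21 genes of mitochondrial dynamics and mitophagy, BNIP3L, a mitophagy receptor of the outer membrane, stood at 0.34 (SE 0.163) with overlapping arrays and was 0.23 without the first untreated array. FKBP8, another mitophagy receptor, stood at −0.23 (SE 0.126).

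Across all mitochondrial lists together, 365 genes were measured. None was called, and 8 had an unadjusted p under 0.05 (2.19%, beside 3.38% of all genes). Of the 365, 360 were inside 1.5-fold and all were inside 2-fold. With the intervals widened to hold for all genes at once, 304 of the 365 lay inside 2-fold. The 5 that the equivalence test did not place inside 1.5-fold were UQCRB, NUBPL, MRPS9, FARS2 and BNIP3L. Their differences were smaller than 1.5-fold, but too imprecise for that bound. Averaged over all 365 genes, the signal differed by −0.01, at 10.857 to 10.874 with DOX and 10.836 to 10.938 without. The 2-fold bound held for all 365 in each of the other 14 settings of the fit that keep every gene and at least 3 arrays a group, and for all 363 that remain when the dimmest 25% of genes are dropped. With both outlying untreated arrays left out it held for 364, FARS2 being the exception.

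The integrated stress response, the route by which mitochondrial failure reaches the nucleus, showed no drug response that passed the test. Of 47 measured genes of amino acid supply and ATF4 targets 0 were called, and all 47 were inside 1.5-fold. An unadjusted p under 0.05 was found for 2 (4.26%, beside 3.38% of all genes), PYCR1 higher and ATF3 lower. The median difference of the list was −0.02. The mean signal of the list was 10.002, 10.011, 10.032 and 9.977 with DOX, against 10.040, 10.052, 10.023 and 9.992 without, with overlap.

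ATF4 read 12.24, 11.94, 12.02 and 12.08 with DOX, against 11.98, 12.25, 12.04 and 11.53 without. The groups overlap, and the difference was 0.12 (SE 0.138, 95% interval −0.17 to 0.40). Its direction rests on the last untreated array, without which ATF4 stood at −0.02. ATF4 is controlled mainly in translation, so its targets are the more direct readout. ASNS, asparagine synthetase, read 10.27, 10.49, 10.33 and 10.34 with DOX, against 10.46, 10.73, 10.40 and 10.48 without, a difference of −0.16 (SE 0.120). CHAC1, which degrades glutathione, read 8.51, 8.56, 8.94 and 8.57 with DOX, against 8.76, 8.41, 8.58 and 8.67 without, a difference of 0.04 (SE 0.137). Both sets overlap.

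FGF21, a hormone released under mitochondrial stress, read 7.45, 7.62, 7.34 and 7.50 with DOX, against 7.47, 7.58, 7.63 and 7.31 without. Its 95% interval ran from 0.862 to 1.13 in fold terms. GDF15, the other such hormone, stood at 0.03 (SE 0.123). ATF3, a stress-induced repressor and activator, read 7.70, 7.44, 7.33 and 7.74 with DOX, against 7.63, 8.09, 7.67 and 7.80 without. Its difference of −0.24 (SE 0.114, adjusted p = 0.999 in limma) is the lowest of the list, and the arrays overlap. It moved to −0.14 without the second untreated array. The signals of FGF21 and ATF3 lie at the 19.7 and 23.7 percentiles of genes, toward the low end, where a signal can understate a change in transcript.

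DDIT3, the transcription factor CHOP, stood at 0.12 (SE 0.157) and its partner in feedback TRIB3 at −0.03 (SE 0.124). Serine and one-carbon genes, known to follow ATF4 in mitochondrial disease, lay on both sides of 0: PSAT1 at 0.13 (SE 0.121), PHGDH at −0.18 (SE 0.121), SHMT2 at −0.09 (SE 0.144) and MTHFD2 at −0.07 (SE 0.089). Without the first untreated array PSAT1 stood at −0.02, SHMT2 at 0.04 and PHGDH at −0.09. PYCR1, a mitochondrial enzyme of proline synthesis, read 8.73, 8.84, 8.77 and 8.84 with DOX, against 8.52, 8.70, 8.72 and 8.65 without. Its DOX arrays lie just above the untreated ones, with a difference of 0.15 (SE 0.070). DDIT4, an inhibitor of mTORC1, had the largest difference of the list at 0.27 (SE 0.177), with overlapping arrays.

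Transcripts of genes upstream of ATF4 also had small differences. OMA1 stood at 0.08 (SE 0.165) and DELE1 at 0.01 (SE 0.087). EIF2AK3, the eIF2 kinase PERK of the endoplasmic reticulum and not part of the OMA1 and DELE1 relay, stood at 0.05 (SE 0.117). These 3 genes were chosen after their values were seen. The relay works through cleavage and kinase activation, which transcript levels do not measure. Of 15 eIF2 kinases and factors 0 had an unadjusted p under 0.05, and all were inside 1.5-fold. Over all promoters searched, 361 measured genes held the ATF4 element shown above. Of these 0 were called, and 13 of 361 had an unadjusted p under 0.05, beside 3.38% of all genes. The median difference of the 361 was −0.01, and 355 were inside 1.5-fold (98.34%, beside 96.8% of all genes).

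**Figure D2:**
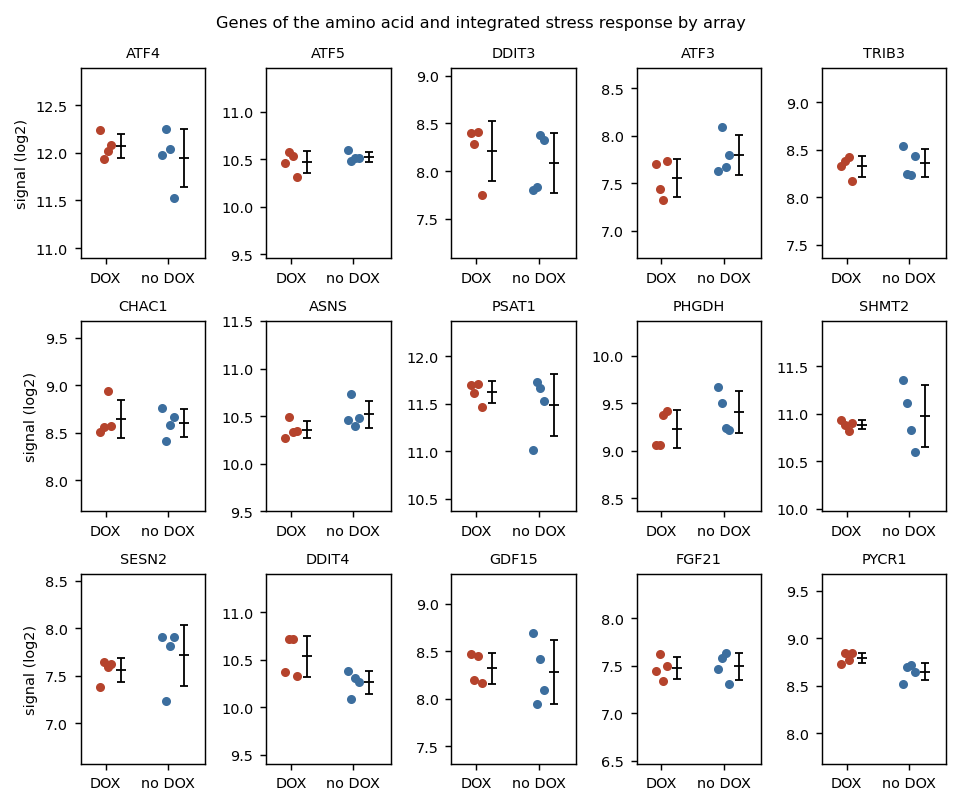
Signal (log2, vertical axes, each spanning 2 units) of 15 genes of the amino acid and integrated stress response on the 4 DOX arrays (red, left) and the 4 untreated arrays (blue, right) of the vector line. Bars give the mean and SD of each group (n = 4). The groups overlap in 14 of the 15 panels, the exception being PYCR1.

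Other stress programmes had no called gene either. In the unfolded protein response of the endoplasmic reticulum 0 of 29 genes were called, 0 had an unadjusted p under 0.05 and all 29 were inside 1.5-fold. HSPA5, the chaperone BiP, read 13.36, 13.23, 13.30 and 13.24 with DOX, against 13.58, 13.39, 13.34 and 13.26 without, a difference of −0.11 (SE 0.077). Its first untreated array is the highest, and the groups overlap. In the cytosolic heat shock response 0 of 20 were called and 1 had an unadjusted p under 0.05 (5%, beside 3.38% of all genes). That gene was STIP1, which links HSP70 to HSP90, with 12.03, 12.04, 12.06 and 12.12 with DOX, against 12.22, 12.23, 12.14 and 12.37 without. The groups do not overlap, but the difference was only −0.18 (SE 0.077) and lay inside 1.5-fold. DNAJB4 and HSPA1L were the 2 members of this list not placed inside 1.5-fold, at 0.31 (SE 0.229) and −0.32 (SE 0.195). Without the first untreated array DNAJB4 stood at 0.13.

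Genes of the NRF2 response to oxidants and electrophiles had 29 measured members. Of these 8 lay above 0 (27.6%, beside 49.46% of all genes) and 21 below. That split was not tested, and members of a list are not independent of each other. None of the 29 was called, 0 had an unadjusted p under 0.05, and all were inside 1.5-fold. HMOX1, heme oxygenase, read 8.85, 8.58, 8.57 and 8.78 with DOX, against 8.83, 8.83, 8.67 and 8.66 without. NQO1, a quinone reductase, stood at −0.15 (SE 0.166). AKR1C1, an aldo-keto reductase, had the lowest p at −0.29 (SE 0.161), but its second probe set gave 0.24 (SE 0.128), and near-identical copies in this family may share signal. The median of the list was −0.05, and its mean signal was 9.770 to 9.804 with DOX and 9.788 to 9.897 without. The antioxidant response element core, searched as TGACNNNGC on both strands, occurred in 5 of 23 promoters of this list (21.74%) and in 13.56% of all promoters. Of 2079 measured genes that hold it, 0 were called and 2076 were inside 2-fold.

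Tetracyclines bind divalent metals, which makes metal-responsive genes a check of their own. None of 19 metallothionein and zinc genes was called or had an unadjusted p under 0.05. MT2A, a metallothionein, read 11.15, 11.02, 10.81 and 10.85 with DOX, against 11.14, 10.79, 10.79 and 10.76 without, with overlap, and MT1X stood at −0.03 (SE 0.114). TFRC, the transferrin receptor, whose transcript is stabilised when iron is short, read 13.08, 12.98, 12.90 and 12.93 with DOX, against 12.97, 13.03, 12.98 and 12.90 without, a difference of 0.00 (SE 0.076). LOX, a collagen cross-linking oxidase induced in hypoxia, was the exception among 25 genes of iron handling and hypoxia. It read 8.07, 7.44, 7.55 and 7.69 with DOX, against 7.27, 7.19, 7.13 and 6.77 without. The groups do not overlap, and the difference of 0.60 (SE 0.167, adjusted p = 0.999 in limma) carried the highest upper limit, 0.94, of all 227 stress genes. The signal of LOX lies at the 16.4 percentile. HK2 and PDK1, genes of the hypoxia response, stood at 0.02 (SE 0.120) and 0.11 (SE 0.169).

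Among 26 p53 targets and DNA damage genes 0 were called and 24 were inside 1.5-fold. CDKN1A, the cell cycle inhibitor p21, read 8.24, 8.21, 8.45 and 8.40 with DOX, against 8.38, 8.19, 8.09 and 8.20 without, a difference of 0.11 (SE 0.086) with overlap. TIGAR, a phosphatase that lowers glycolytic flux, had the lowest difference at −0.45 (SE 0.174), and DDB2, a sensor of ultraviolet damage, the highest at 0.25 (SE 0.117). TIGAR moved to −0.29 without the second untreated array, which read 8.10 where the other 3 read 7.45 to 7.49. Over all 227 stress genes 0 were called, and 6 had an unadjusted p under 0.05 (2.64%, beside 3.38% of all genes). Of the 227, 222 were inside 1.5-fold and all were inside 2-fold. With the intervals widened to hold for all genes at once, 181 of the 227 lay inside 2-fold. The 5 that the equivalence test did not place inside 1.5-fold were HSPA1L, DNAJB4, TIGAR, LOX and ZMAT3. ZMAT3, an RNA-binding p53 target at −0.26, is named only for its values. Of these genes only LOX differed by more than 1.5-fold, and the others were too imprecise for that bound. In the same 14 settings the 2-fold bound held for all 227 except with the values as deposited, where LOX fell out, and it held for 225 with both outlying untreated arrays left out, where LOX and ZMAT3 fell out.

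Genes outside these lists were not called either, and their largest differences are described by the rule stated with the methods. Among genes with an unadjusted p under 0.05 whose 4 DOX arrays do not overlap the 4 untreated arrays, which were 245 in all (1.33%), 112 lay above (0.608%) and 133 below (0.722%), and the 12 largest of each direction were taken. TAS2R40, a bitter taste receptor on chromosome 7, had the lowest p of all genes. It read 7.46, 7.74, 7.88 and 7.89 with DOX, against 7.12, 6.80, 6.57 and 6.86 without. The groups are well apart, and the difference of 0.91 (SE 0.169) had an adjusted p of 0.348 in limma. With limma's array weights, TAS2R40 was the single gene called, at 1.00 and an adjusted p of 0.0152. Over all 15 other settings that keep the gene the adjusted p ranged from 0.0152 to 1. Its signal lies at the 14.4 percentile of genes. The related receptor TAS2R4, chosen after its values were seen, stood at 0.94 (SE 0.374) with overlapping arrays.

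In the other direction PDXDC2P-NPIPB14P, a pseudogene readthrough on chromosome 16 from a family with many near-identical copies, read 8.40, 8.48, 8.12 and 8.53 with DOX, against 9.12, 9.32, 8.95 and 9.25 without. Its difference was −0.78 (SE 0.164, adjusted p = 0.827 in limma). CA5B, a carbonic anhydrase of the mitochondrial matrix that was on none of the lists, read 8.92, 9.12, 9.21 and 9.20 with DOX, against 9.67, 9.75, 9.71 and 9.80 without. The untreated arrays of CA5B lie close together and well above the highest DOX array. The difference of −0.62 (SE 0.158) had an adjusted p of 0.999 in limma, and over the leave-one-out fits it ranged from −0.65 to −0.55.

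ADAMTS1 and ADAM9, 2 metalloproteases, and CERS5, a ceramide synthase, also separated the groups. ADAMTS1 read 9.52, 9.48, 9.78 and 9.62 with DOX, against 9.21, 9.11, 8.99 and 9.13 without, a difference of 0.49 (SE 0.111, adjusted p = 0.912 in limma). CERS5 read 9.56, 9.07, 9.38 and 9.05 with DOX, against 8.56, 8.64, 8.84 and 8.82 without, a difference of 0.55 (SE 0.158). ADAM9 read 11.58, 11.27, 11.75 and 11.65 with DOX, against 10.73, 11.21, 11.09 and 11.19 without, a difference of 0.51 (SE 0.145). For ADAM9 the closest arrays of the groups nearly touch. Of the remaining genes higher with DOX, SLCO4C1, an organic anion transporter, stood at 0.64 (SE 0.235) and ZNF350, a zinc finger repressor, at 0.54 (SE 0.192), but without the first untreated array they stood at 0.36 and 0.33. USP32P1, LOX, KRTAP5-5, ZNF572, SNORD58A and GDPD1 lay between 0.46 and 0.72. Of the remaining genes lower with DOX, DNAL1, an axonemal dynein light chain, stood at −0.68 (SE 0.196), CNN3, the actin-binding calponin 3, at −0.40 (SE 0.115), and SNORD63, HCG4, SNORA2B, U2AF1L4, ZNF354B, ZNF573, RNVU1-8 and CYP2U1 between −0.59 and −0.39.

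**Figure D3:**
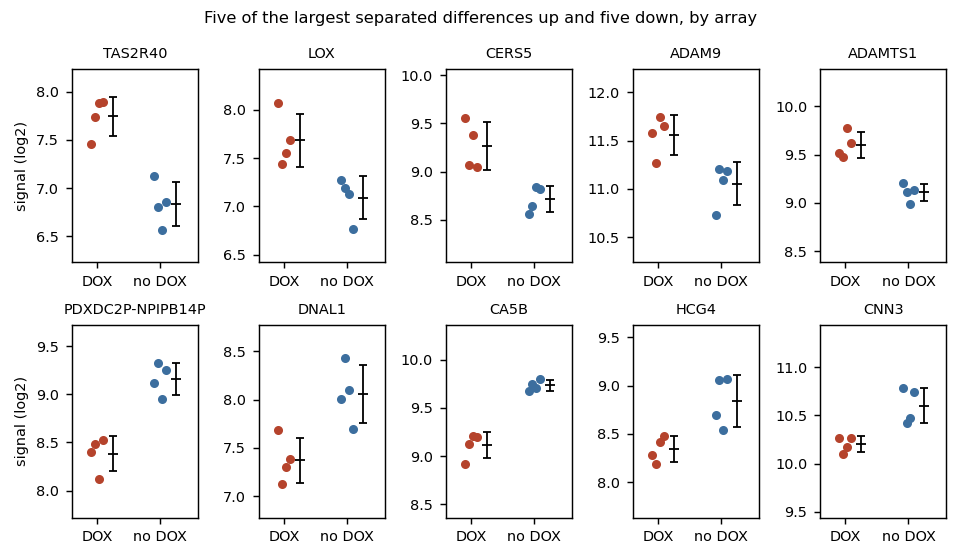
Signal (log2, vertical axes, each spanning 2 units) of 10 of the 24 genes with the largest separated differences on the 4 DOX arrays (red, left) and the 4 untreated arrays (blue, right) of the vector line. Bars give the mean and SD of each group (n = 4); the groups do not overlap because that was a condition for the choice, and none of the 10 genes passed the adjusted test.

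Lists outside mitochondria and stress had medians between −0.03 and 0.05, and 0 of their members were called. Of 37 immediate early genes and MAP kinase feedback genes 5 had an unadjusted p under 0.05 (13.5%, beside 3.38% of all genes), 1 higher and 4 lower with DOX (1.67% and 1.71% of all genes). Among these MYC, a growth-promoting transcription factor, and IER2, an immediate early gene, were chosen after their values were seen. MYC read 10.68, 10.69, 10.72 and 10.73 with DOX, against 11.09, 11.16, 11.06 and 10.81 without, a difference of −0.32 (SE 0.097). IER2 read 8.38, 8.34, 8.44 and 8.37 with DOX, against 8.60, 8.87, 8.65 and 8.70 without, a difference of −0.33 (SE 0.095). Neither overlaps between the groups, both had an adjusted p of 0.999 in limma, and both lay inside 1.5-fold.

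The list of ribosome biogenesis genes and MYC targets was the single list whose mean signal did not overlap between the groups. It read 11.152, 11.154, 11.110 and 11.141 with DOX, against 11.217, 11.155, 11.158 and 11.163 without. Of the list's 24 members 0 were called and 1 had an unadjusted p under 0.05 (4.17%, beside 3.38% of all genes). The closest arrays nearly touch, and the difference of the means was −0.03. That gap was found among 43 lists compared, and no test was made of it.

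Inflammatory genes lie downstream of NOD1, a sensor of bacterial cell wall fragments, and were examined in the vector line for that reason. Of 33 cytokines and chemokines 0 were called and 0 had an unadjusted p under 0.05. TNF read 8.16, 8.27, 8.21 and 8.31 with DOX, against 7.99, 8.21, 8.25 and 8.10 without, and IL1B stood at 0.15 (SE 0.195). CXCL8, the neutrophil chemokine interleukin 8, stood at 0.04 (SE 0.218), with a 95% interval from −0.41 to 0.49. MMP9, a gelatinase of a protease family that tetracyclines inhibit at the protein level, read 7.65, 7.55, 7.67 and 7.49 with DOX, against 7.75, 7.67, 7.73 and 7.47 without. The signal of MMP9 is also low, at the 22.2 percentile. In 28 NF-kB feedback genes 1 had an unadjusted p under 0.05 (3.57%, beside 3.38% of all genes), and all 28 were inside 1.5-fold. Of the cytokines and chemokines 27 were inside 1.5-fold, of 37 interferon-stimulated genes 32, and all lists named in this paragraph lay wholly inside 2-fold.

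The same drug, dose and time were used in the lines with inducible NLRP4 and NOD1, which have untreated arrays of their own, so these comparisons share no control arrays with the vector line. The difference between the DOX effects of the vector line and the NLRP4 line was called for 1 gene (0.00543%), and that between the vector line and the NOD1 line for 1 gene (0.00543%). They were NLRP4 itself, at −3.71 (SE 0.266, adjusted p = 1.43e-08 in limma), and NOD1 itself, at −3.95 (SE 0.190, adjusted p = 2.61e-12 in limma). At an unadjusted p under 0.05 these differences counted 906 genes (4.92%) and 745 genes (4.05%). No mitochondrial or stress gene of the lists was therefore called as responding differently in the vector line.

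Some of the differences seen in the vector line had the same direction in both other lines. CERS5 stood at 0.55 in the vector line, 0.46 in the NLRP4 line and 0.82 in the NOD1 line (SE 0.158 each). ADAMTS1 stood at 0.49, 0.29 and 0.44 in the vector, NLRP4 and NOD1 lines (SE 0.111 each), and ADAM9 at 0.51, 0.20 and 0.54 (SE 0.145 each). None of these 9 values passed the adjusted test. TAS2R40 stood at 0.01 and 0.12 in the NLRP4 and NOD1 lines, and CA5B at 0.22 and −0.04. Of the 12 genes highest in the vector line 7 had the same direction in the NLRP4 line, 10 in the NOD1 line and 6 in both. Of the 12 lowest 8, 7 and 4 did.

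Over the 622 genes with an unadjusted p under 0.05 the direction was the same for 316 in the NLRP4 line (50.8%, beside 50.77% of all genes) and for 352 in the NOD1 line (56.59%, beside 51.86% of all genes). Across all 18417 genes, which are not independent replicates, the DOX differences of the vector line correlated at Pearson r = 0.015 with those of the NLRP4 line and at 0.054 with those of the NOD1 line. MRPS9, the mitochondrial ribosomal gene with the largest difference in the vector line, stood at −0.26 and 0.23 in the NLRP4 and NOD1 lines, PC at 0.09 and −0.01, and LOX at 0.07 and 0.25. MYC stood at −0.15 and −0.23, IER2 at −0.08 and 0.08, and BNIP3L at 0.26 and 0.27.

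**Figure D4:**
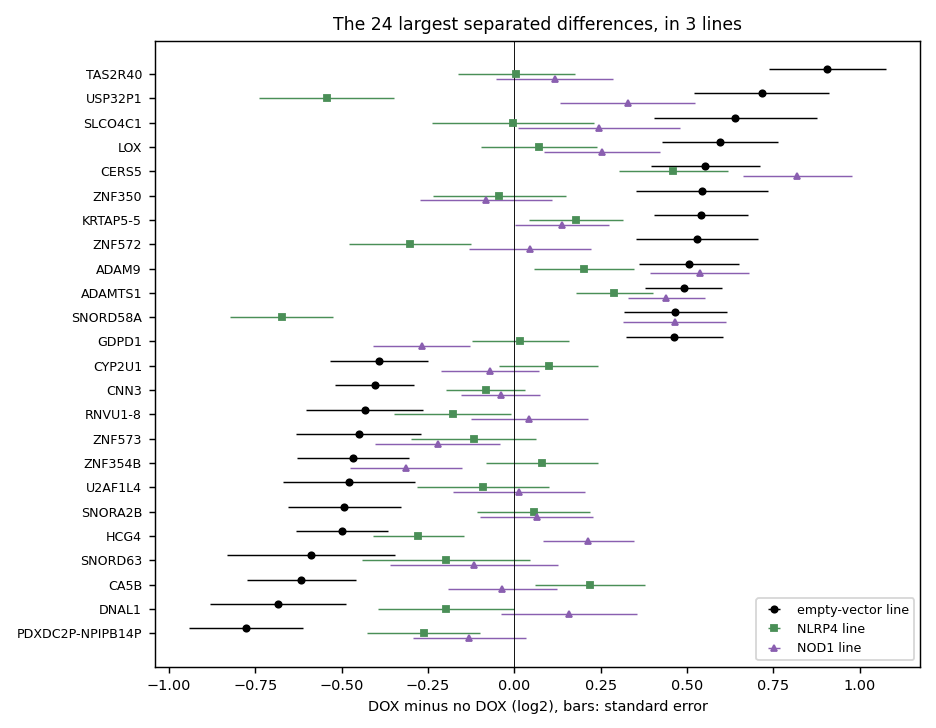
Differences between DOX and no DOX (log2, horizontal axis) of the 24 genes with the largest separated differences in the vector line, shown for the vector line (black circles), the NLRP4 line (green squares) and the NOD1 line (purple triangles). Bars are standard errors from the limma fit. The vector values were used to choose the genes; CERS5, ADAM9 and ADAMTS1 lie right of 0 in all 3 lines, and TAS2R40 lies near 0 in the other lines.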

How the data were processed

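The deposited table held 1 log2 signal for each probe set on 24 arrays. The submitters' processing notes name RMA and oligo for making these values; the sources used here give no versions and no genome build. The deposited medians differed between arrays, so the gene table was quantile-normalized. Of 33297 probe sets, 19460 had 1 symbol in the platform annotation, 1754 had several, and for 12083 no name was used; 19429 of the single symbols matched RefSeq GRCh38.p14 by Entrez ID. The brightest probe set stood for its gene (18417 genes, 769 with more than 1 probe set). R 4.3.3 and limma 3.58.1 fitted 6 group means (18 residual degrees of freedom), tested on simulated data. Calls required a Benjamini-Hochberg adjusted p under 0.05 over all genes; equivalence tests used 1.5-fold and 2-fold. The 44 lists had 1253 entries, 1135 of them measured. Named genes are the 12 largest separated differences in each direction, the member with the lowest p, the highest and the lowest of each mitochondrial or stress list, and fixed genes; others are marked. Members and lists were chosen with earlier results of these data known. The number of arrays limits precision. Alternatives were scaling, arrays fitted, array weights, probe set choice, a filter on dim genes, the prior and leaving out arrays.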

Additional observations from a re-analysis of the deposited data

Results flagged for a closer look

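Within groups of 4 arrays, 16 of 320 sets of values checked (5%) held 1 array far from the other 3, past Dixon's 95% critical value. Chance alone gives about 1 in 20, or 5%. Of the 16 arrays 5 were the first untreated array of the vector line: SNORD63 at 9.72, LONP1 at 8.95, TUFM at 10.08, MT2A at 11.14 and the mean of the ribosome biogenesis and MYC target list at 11.217. The second untreated array stood apart for TIGAR at 8.10 and SESN2 at 7.24, and the third for MTERF2 at 9.42. Among DOX arrays the first stood apart for PDIA4 at 11.87 and for the mean of the cytosolic ribosomal proteins at 13.775, and the second for SNORD58A at 10.78 and MSRB2 at 10.48. The third DOX array stood apart for MRPS16 at 11.09, CHAC1 at 8.94 and the mean of the epithelial and fibroblast markers at 7.885, and the fourth for TK2 at 9.79. None of these genes was called with all arrays.

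The DOX effect differed between lines for NLRP4, at −3.71 in the vector line minus the NLRP4 line, and for NOD1, at −3.95 in the vector line minus the NOD1 line, both past the adjusted threshold of limma's test of the difference.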

How the results depend on the processing

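Across 16 alternatives to the reported fit, 0 genes were called in 15. With limma's array weights 1 gene was called, TAS2R40 (1.0043, adjusted p = 0.0152), with 1000 genes at an unadjusted p under 0.05. Leaving out the dimmest 25% of genes gave 408 of 13812. Leaving out each array in turn gave 0 called, 551 to 789 at an unadjusted p under 0.05, 94.9% to 95.7% inside 1.5-fold and 99.49% to 99.61% inside 2-fold. The NF-kB list's median relative to all genes was −0.02 and ranged from −0.0447 to 0.006839 over these fits. The contrast of the vector line minus the NLRP4 line called 2 genes, NLRP4 and SNORD58A, with arrays centred on their medians and with array weights. With values as deposited and with centred arrays, list medians relative to all genes were −0.08125 for complex I, −0.110 for ATP synthase, −0.115 for heat shock, −0.178 for cytosolic ribosomal proteins and −0.08875 for the proteasome, beside 0.00, −0.02, −0.02, −0.01 and 0.00 after quantile normalization. The values as deposited put the median of all genes at 0.09. With the first and second untreated arrays both left out, an alternative chosen after seeing the data, the mitochondrial chaperone list stood at 0.0449 and the matrix metalloproteinase list at 0.0443. The causes were not tested. No paired analysis was possible because array numbers are not shared between groups and replicate numbers only follow the order of the samples. Fits on the 8 vector arrays give no contrast between lines, and the filter removes named dim genes. Probe sets with several symbols or none numbered 13837, of which 0 were called and 4.07% had an unadjusted p under 0.05.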
